A study of Mus musculus with 18 samples.

Results

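The cholesterol and fatty acid synthesis genes are 34 genes chosen by what their products do, and they were followed here across innate lymphocytes of mouse liver and spleen. They were 6 genes of the mevalonate and isoprenoid steps, 10 of the squalene and sterol steps, 5 regulators of the SREBP pathway, 5 genes of sterol transport and the LXR receptors, and 8 genes of fatty acid synthesis and desaturation. All 34 were found among the 46078 genes of the count table, and all 34 were among the 14714 genes that passed the filter on low counts. The rule that lists them uses no measured value.

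Group 1 innate lymphoid cells (ILC1s) and natural killer (NK) cells are related lymphocytes that both carry NKp46 and NK1.1. The study sorted ILC1s of liver and spleen, and NK cells of liver, from C57BL/6 mice aged 8 weeks, with 200 cells per library, and sequenced full-length cDNA by a SMART-seq protocol. Each population came from control mice that carried Ncr1-Cre alone and from mice that carried Ncr1-Cre together with Rosa26-RARα403 (RARa403), which gave 6 groups of 3 libraries and 18 libraries in all. RARα403 is a truncated retinoic acid receptor alpha that acts as a dominant negative form. Cre driven by Ncr1 acts in NKp46+ cells, and every group, controls included, carried Ncr1-Cre. The cells were sorted as CD3-, NK1.1+ and NKp46+, the ILC1s further as CD49a+, low in CD49b and IL-7R+, and the NK cells as CD49a- and CD49b+. Since nothing ties a library to one animal or another, p-values measure the spread between these libraries, which may be technical.

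Cholesterol is built from acetyl-CoA through mevalonate, isoprenoids, squalene and lanosterol. When sterols in the endoplasmic reticulum are scarce, SCAP escorts the SREBP proteins to the Golgi, where they are cleaved into active transcription factors; SREBP2, encoded by Srebf2, acts mainly on sterol synthesis genes and SREBP1, encoded by Srebf1, mainly on fatty acid synthesis genes. INSIG proteins hold SCAP back, and the LXR receptors, which bind oxysterols, drive sterol export through the transporters ABCA1 and ABCG1. Proliferating lymphocytes need both pathways for membranes.

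The stretches before the RefSeq start of 3 genes are shown, those of Srebf2 and Lss, which are described below, and that of Hmgcs1. They were searched for 3 short sequence words. Each is the 250 bases before the start in GRCm38.p6, 5′ to 3′, with the words in capitals. The words were the sterol regulatory word TCACNCCAC, the CCAAT box spelled CCAAT, and the E-box spelled CACGTG. Each was searched on both strands, and a match on the opposite strand stands in capitals as its reverse complement. In these stretches no word overlapped another.
Srebf2 chr15:82147019-82147268 (+ strand): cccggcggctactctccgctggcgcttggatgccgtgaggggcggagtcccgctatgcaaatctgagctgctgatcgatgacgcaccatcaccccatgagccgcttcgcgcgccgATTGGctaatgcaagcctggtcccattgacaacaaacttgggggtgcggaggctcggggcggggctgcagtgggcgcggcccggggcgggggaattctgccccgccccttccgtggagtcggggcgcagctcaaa
Lss chr10:76531355-76531604 (+ strand): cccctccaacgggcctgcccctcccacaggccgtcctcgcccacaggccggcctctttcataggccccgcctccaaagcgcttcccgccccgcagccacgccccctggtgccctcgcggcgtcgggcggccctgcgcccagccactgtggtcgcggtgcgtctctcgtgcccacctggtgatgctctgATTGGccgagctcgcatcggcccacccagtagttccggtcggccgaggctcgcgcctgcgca
Hmgcs1 chr13:119690101-119690350 (+ strand): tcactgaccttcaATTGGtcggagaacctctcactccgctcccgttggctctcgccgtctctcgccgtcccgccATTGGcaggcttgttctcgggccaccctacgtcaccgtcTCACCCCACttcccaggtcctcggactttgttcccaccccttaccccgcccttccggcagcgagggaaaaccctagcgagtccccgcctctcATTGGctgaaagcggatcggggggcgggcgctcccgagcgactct
Hmgcs1, the enzyme that makes HMG-CoA, held 1 sterol regulatory word and 3 CCAAT words in this stretch, while Srebf2 and Lss held 1 CCAAT word each. RefSeq windows of 250 bases before to 50 bases after the start were found for 26 of the 34 genes, in 35 windows. CCAAT stood in 20 of the 35 windows (57.1%), against 37.4% of all 32851 windows. Counted by gene, it stood in at least 1 window of 13 of the 13 sterol enzyme genes with a window. Some genes have several windows, and no share by gene over all genes was computed. CACGTG stood in 7 of the 35 windows (20%), in Abca1, Dhcr7, Hsd17b7, Insig1, Sc5d and Scap, against 7.15% of all windows. TCACNCCAC stood in 1 of the 35, that of Hmgcs1, against 1.24% of all. These shares describe letters in a window and not binding.

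Total counts ran from 3452279 to 9038767 per library, and a floor of 3 counts stood for 0.333 to 0.859 CPM (counts scaled to library size). The floor covers counting error only. Library 1 of each RARa403 group has to be named before the results. The library labelled liver NK RARa403 1 stood apart, since it lacked transcripts that all others held: 2735 genes passed 50 CPM in every library but this, and 192 of them (7.02%) reached no more than 3 counts in it. The Gt(ROSA)26Sor transcript of the targeted locus was counted 104 to 1260 times in each of 9 controls and 0 to 10 times in libraries 2 and 3 of the RARa403 groups, but at least 365 times in library 1 of both ILC1 groups labelled RARa403. Those 2 libraries go against their label by this measure, so the RARa403 results are also given without library 1 of all 3 RARa403 groups (15 libraries). The sample codes of every library 1 open with another number than those of libraries 2 and 3, so the 15-library fit sets RARa403 libraries of 1 opening number against controls of both. The within-number values, from libraries 2 and 3 of every group, are therefore given as well. The summed CPM of the ILC1 marker list was 1570 to 3500 in ILC1 libraries and 38.3 to 408 in liver NK libraries.

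**Figure D1:**
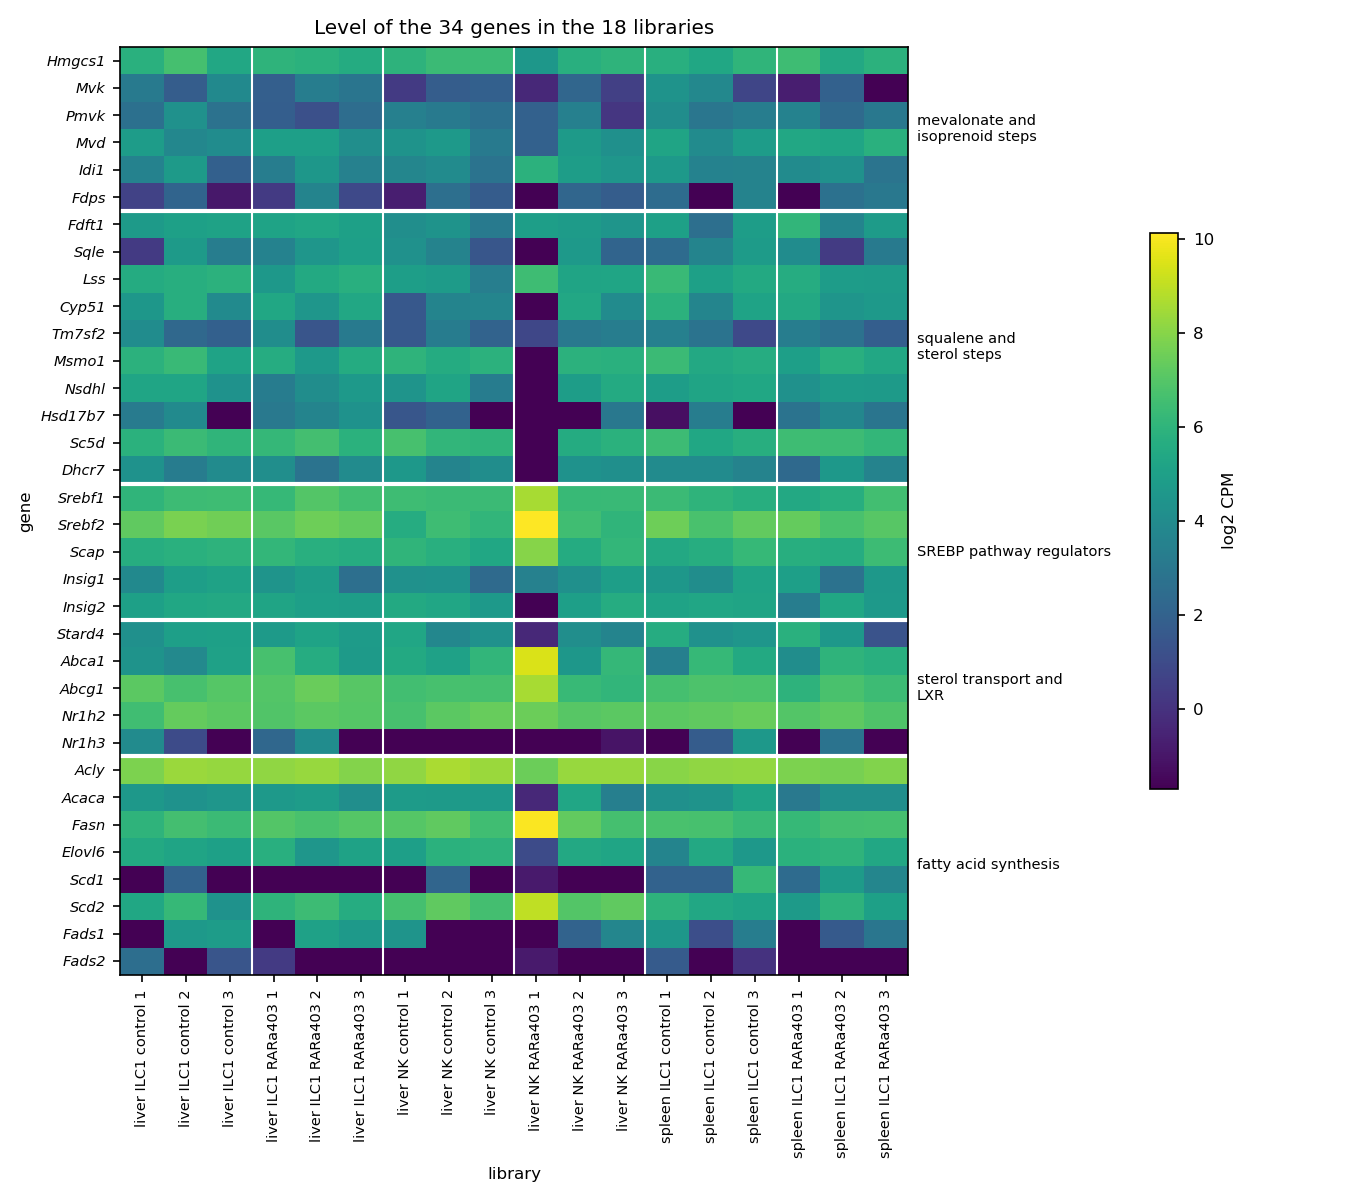
Level of each of the 34 genes (rows, log2 CPM as colour) in each of the 18 libraries (columns), ordered by the genes' roles. Genes such as Acly and Nr1h2 have a like colour in every library, and the column of liver NK RARa403 library 1 departs from the others, with 16 of the 34 genes at or under 3 counts.

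Levels between genes were compared as CPM per kilobase of exon over the 17 libraries other than liver NK RARa403 1. Acly, which makes cytosolic acetyl-CoA from citrate, had the highest median at 54.3 CPM per kb (range 39.1 to 76.1). Nr1h2, the LXR beta receptor, followed with 42.2 (27.6 to 50.4), and the ranges of these neighbours overlapped. Srebf2 had 19.3 (6.86 to 29.8), Srebf1 14.4 (7.68 to 22), the sterol exporter gene Abcg1 14.1 (8.41 to 23.8) and Mvd, a decarboxylase of the mevalonate steps, 14.1 (4.56 to 30.4), and these too overlapped. Among the sterol enzymes with low levels, Fdps, which makes farnesyl diphosphate, had a median of 0.754 CPM per kb. The handling of reads that align to several places is not stated, so levels of genes with near copies, among them the neighbouring Scd1 and Scd2, are uncertain.

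In those 17 libraries 27 of the 34 genes were above 3 counts in every library. The other 7 were at or under it in 2 libraries (Mvk), 4 (Fdps), 5 (Hsd17b7 and Fads1), 9 (Scd1), 10 (Nr1h3) and 12 (Fads2). For 9 genes the lowest and highest of the 17 libraries lay within 2 log2 units, and the narrowest spans were 0.87 for Nr1h2, 0.96 for Acly and 1.06 for Scap. The widest were 7.91 for Scd1, which makes oleate from stearate, and 6.79 for Fads1, a desaturase of polyunsaturated fatty acids. Fads1 was at 0 counts in library 1 of both liver ILC1 groups and at log2 CPM 4.70 to 5.09 in the other libraries of those groups.

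As means of log2 CPM, which weigh every gene alike, the sterol and the fatty acid lists overlapped between the 6 groups. The summed CPM of the fatty acid genes parted control ILC1s from NK cells by a narrow margin, the nearest values being 587 and 594. The mean log2 CPM of the 16 sterol synthesis genes was 4.0 ± 0.53 in control and 4.13 ± 0.16 in RARa403 liver ILC1s, 3.99 ± 0.36 and 3.90 ± 0.08 in spleen ILC1s, and 3.58 ± 0.47 in control liver NK cells (SD, n = 3 libraries each). RARa403 liver NK cells had 2.90 ± 1.83 over all 3 libraries and 3.95 ± 0.20 over libraries 2 and 3, because library 1 was at 0.79. The 8 fatty acid genes had 4.05 ± 0.46 and 3.84 ± 0.26 in control and RARa403 liver ILC1s. Their means were 3.84 ± 0.40 and 3.62 ± 0.56 in the NK groups, and 4.48 ± 0.49 and 4.01 ± 0.57 in the spleen groups. The summed CPM of the fatty acid genes, to which abundant genes such as Acly contribute most, was at most 587 in control liver ILC1s (median 500) and 594, 795 and 609 in control NK cells. It was 504 to 595 in liver ILC1s labelled RARa403, 396 to 560 in the 6 spleen ILC1 libraries, and 1770, 681 and 630 in NK cells labelled RARa403. Every NK library thus lay above every control liver ILC1 and every spleen ILC1 library, and RARa403 liver ILC1s reached the lowest NK value. Acly itself overlapped between control liver ILC1s and control NK cells, whereas Scd2, described below, did not. How often sums over other genes part these groups was not tested. The summed CPM of the sterol genes overlapped, at 344 to 559 in control liver ILC1s and 299 to 394 in control NK cells. In bulk libraries, fewer cells of a type and less RNA per cell cannot be told apart.

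**Figure D2:**
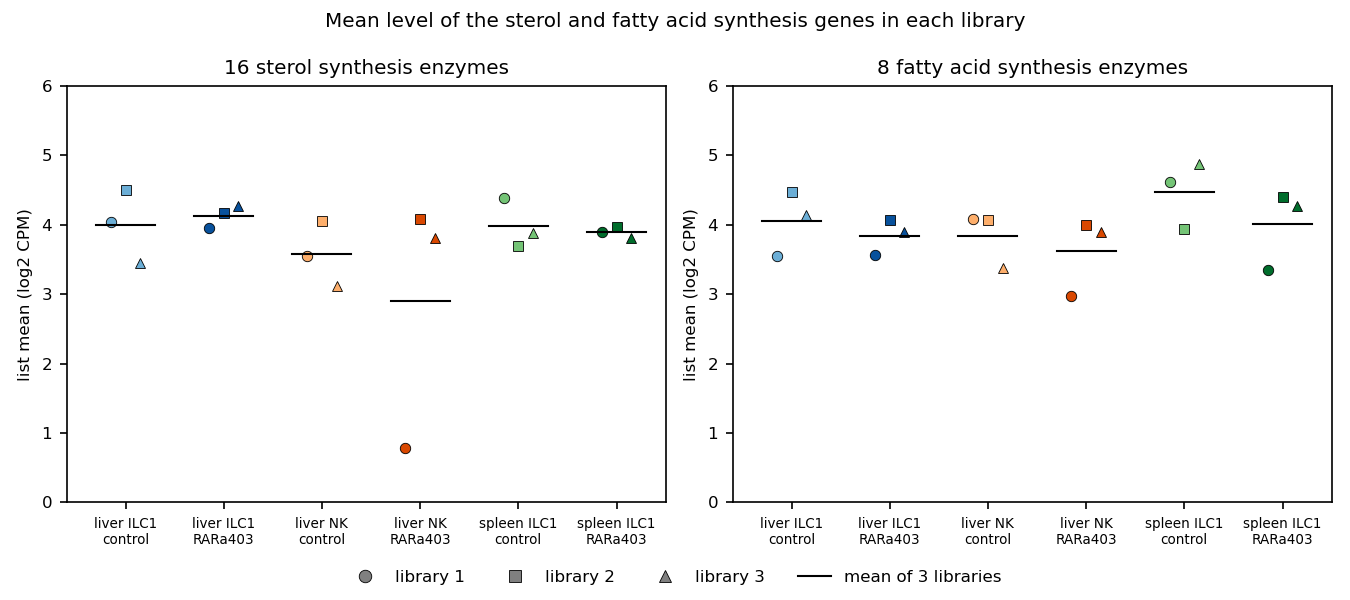
Mean log2 CPM of the 16 sterol synthesis genes and the 8 fatty acid synthesis genes (y axes) in each library of the 6 groups (x axes), with symbols for libraries 1 to 3 and a line at each mean of 3. In this mean of logs the groups overlap, and liver NK RARa403 library 1 lies lowest, at 0.79, for the sterol genes.

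With edgeR's quasi-likelihood test on all 18 libraries, 0 of the 34 genes passed an adjusted p of 0.05 in any of the 5 comparisons of groups or the 2 comparisons of the RARa403 effect between populations. Over all genes tested, 0.605% passed between ILC1s and NK cells of control liver and 0% in each of the other 6. At an unadjusted p under 0.05 the 34 genes gave 4 in ILC1s against NK cells (background 7.91%), 1 for RARa403 within liver ILC1s (2.94%), 8 within NK cells (9.64%), 2 within spleen ILC1s (2.89%), 0 in spleen against liver ILC1s (3.18%), and 2 and 0 in the comparisons of the effect (6.2% and 2.7%). DESeq2 called 0 members in each comparison, where it called 1.37% of genes between ILC1s and NK cells, 0.12%, 0.517% and 0.0793% for RARa403 in the order above, 0.12% for spleen against liver, and 0.178% and 0.0698% for the effect. limma-voom with quality weights called 2 members, both in ILC1s against NK cells, where 3.26% of genes passed, and 0 members elsewhere.

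The comparison of ILC1s with NK cells of control liver asks how the populations differ. Srebf2 (chr15:82147181-82205379 in mm10, plus strand) was a member whose call in this comparison depended on liver NK RARa403 1, a library of neither group that enters through the shared estimate of spread. With all 18 libraries the smallest p-values were those of Scd2, Fads2, Lss and Nr1h3, and none passed. The log2 CPM of Srebf2 was 7.27, 7.74 and 7.56 in control liver ILC1s and 5.63, 6.47 and 6.08 in control liver NK cells. The 2 groups did not overlap, and the 3 ILC1 libraries all lay above the NK libraries. The log2 difference was 1.44 ± 0.72 (SE, 2.71-fold, edgeR adjusted p = 0.653) with all 18 libraries, and Srebf2 was higher by 1.43 ± 0.26 (2.70-fold, adjusted p = 0.00811) without liver NK RARa403 1, where 1.75% of genes were called. The fit of 15 libraries gave the same 1.43 ± 0.26 (adjusted p = 0.00817; 2.3% of genes), and limma-voom gave 1.48 (adjusted p = 0.00473).

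Scd2 (chr19:44293674-44306864, plus strand), a stearoyl-CoA desaturase, lay the other way. It had log2 CPM 5.35, 6.25 and 4.32 in control liver ILC1s and 6.63, 7.24 and 6.62 in control liver NK cells, with no overlap. The log2 difference was -1.36 ± 0.56 (SE, adjusted p = 0.544) with 18 libraries and -1.37 ± 0.42 (adjusted p = 0.158) without liver NK RARa403 1. It passed in limma-voom at -1.54 (adjusted p = 0.0464). Scd2 and Scd1 are near copies, and Scd1 was at 0 counts in 2 of the 3 libraries of each of these groups.

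A comparison added after the data were seen set the mean of the 4 ILC1 groups against that of the 2 liver NK groups, with liver NK RARa403 1 left out. Srebf2 was higher in ILC1s by 1.09 ± 0.18 (SE, 2.13-fold, edgeR adjusted p = 0.00195) and Scd2 was lower, with a log2 difference of -1.37 ± 0.26 (2.58-fold, adjusted p = 0.00539), against 3.48% of all genes called. Over 12 ILC1 libraries Srebf2 spanned 6.75 to 7.74 (median 7.28), and over 5 NK libraries 5.63 to 6.52 (median 6.08). Scd2 spanned 4.32 to 6.42 (median 5.52) in the ILC1 libraries and 6.62 to 7.24 (median 6.96) in the NK libraries. Neither gene overlapped between the populations, which 1.1% of genes did upward and 0.897% downward. In the fit of 15 libraries the differences were 1.08 ± 0.19 (adjusted p = 0.00326) and -1.31 ± 0.27 (adjusted p = 0.0126), where 4.2% of genes passed. With all 18 libraries the Srebf2 difference was -0.13 (adjusted p = 0.981), since liver NK RARa403 1 stood at 10.14, whereas Scd2 was lower, at -1.84 ± 0.32 (adjusted p = 0.00407; 2.81% of genes).

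Control spleen ILC1s were also set beside control liver NK cells. Srebf2 had 7.52, 6.75 and 7.28 in spleen ILC1s, above all 3 NK libraries, with a difference of 1.12 ± 0.26 (edgeR adjusted p = 0.0529) without liver NK RARa403 1. Scd2 had 5.94, 5.40 and 5.19, below all 3 NK libraries, with a difference of -1.32 (adjusted p = 0.229). Summed T cell marker CPM moved with the population, at 1660 to 1930 in control liver ILC1s and 653 to 711 in control liver NK cells, as did B cell markers at 417 to 793 and 218 to 237, and their part in the result was not tested. Of 10 T cell markers 10 passed 3 counts in at least 1 control liver ILC1 library and 6 in at least 1 control NK library, and of 8 B cell markers 5 and 4 did; Ms4a1 had 0 counts in all 6 of these libraries.

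**Figure D3:**
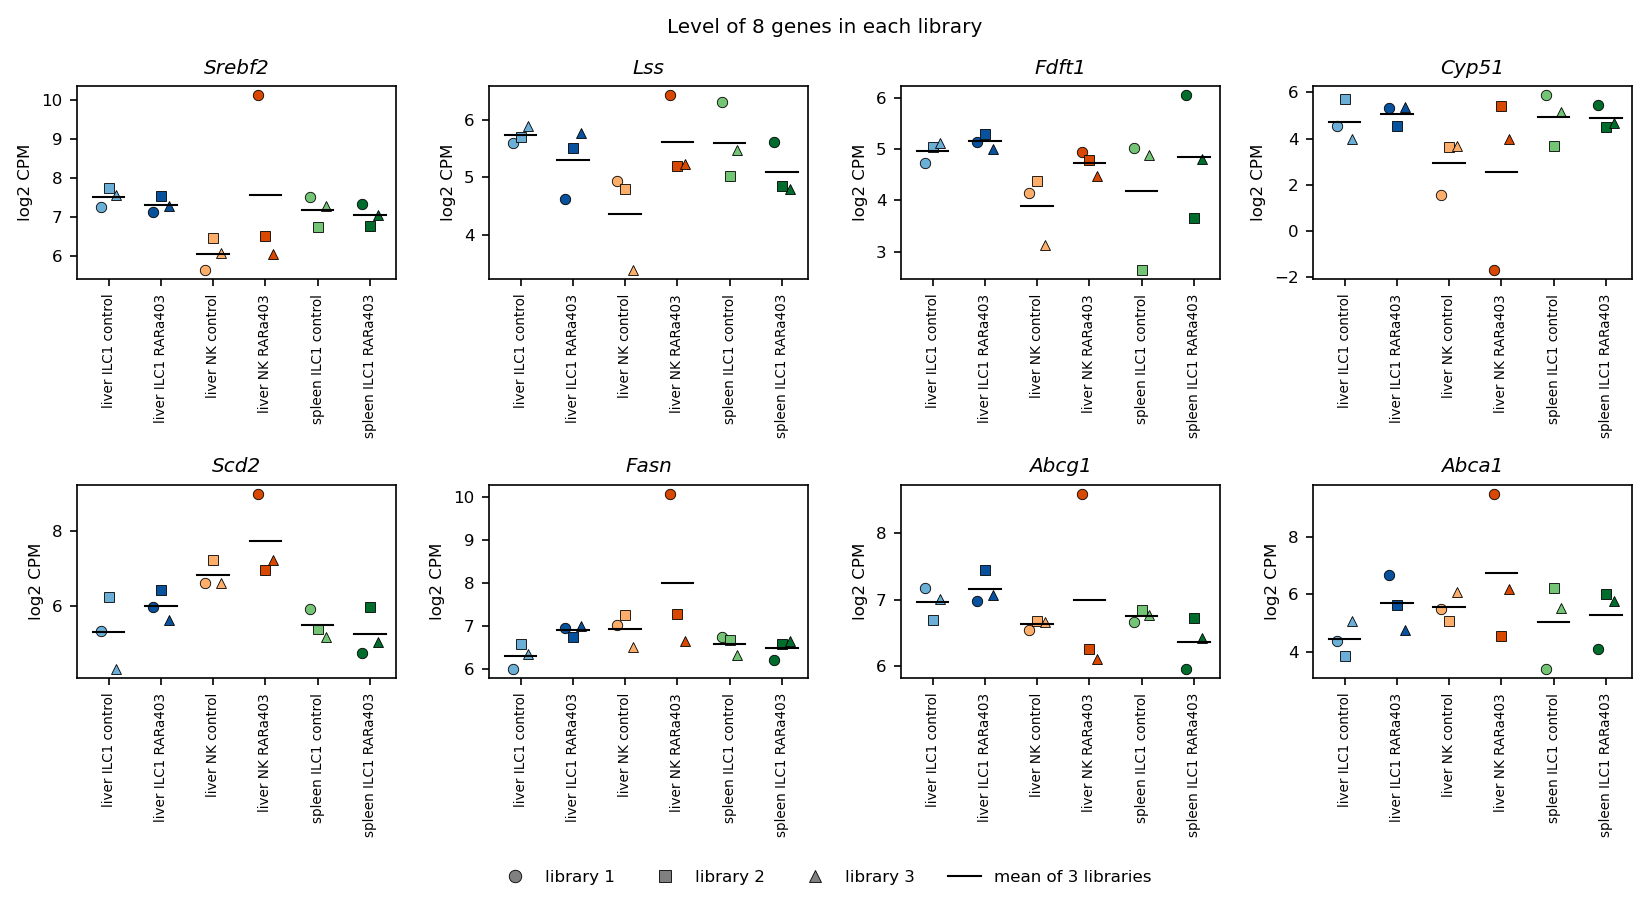
Log2 CPM (y axes) of 8 genes in each library of the 6 groups (x axes), with symbols for libraries 1 to 3 and a line at each mean of 3. Srebf2 spans 6.75 to 7.74 in the ILC1 groups and 5.63 to 6.52 in the liver NK groups apart from NK RARa403 library 1, and Scd2 spans 4.32 to 6.42 and 6.62 to 7.24.

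Of the sterol enzymes, Lss, which closes squalene epoxide into lanosterol, had 5.60, 5.71 and 5.91 in control liver ILC1s and 4.93, 4.80 and 3.37 in control liver NK cells. The ILC1 libraries lay above the NK libraries, with a log2 difference of 1.23 ± 0.51 (SE, edgeR adjusted p = 0.562). The rate of no overlap over all genes in this comparison was 16.9%, and 8 of the 34 members had none: Fdft1, Lss, Cyp51, Srebf2 and Abcg1 with ILC1s above and Abca1, Acaca and Scd2 with ILC1s below. The median log2 difference of the 16 sterol genes was 0.26, with 12 of 16 above 0, and that of the 8 fatty acid genes -0.26, with 2 of 8 above 0, where all genes had a median of 0.03. Of the 36 other pathway genes tested, 0 passed in this comparison (edgeR).

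Hmgcs1, Idi1 and Sqle did not separate the populations, unlike Fdft1, Lss and Cyp51. Hmgcs1 had 5.82, 6.66 and 5.40 in control liver ILC1s and 5.97, 6.38 and 6.39 in control liver NK cells. Idi1, the isopentenyl diphosphate isomerase, had 3.56, 4.74 and 1.92 against 3.74, 4.0 and 2.81. Sqle, the squalene epoxidase, had 0.33, 4.74 and 3.30 against 4.27, 3.60 and 1.47. For each of these 3 genes the groups overlapped.

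Srebf1 and the feedback gene Insig1 also overlapped. Srebf1 had 6.05, 6.40 and 6.48 in control liver ILC1s and 6.48, 6.38 and 6.36 in control liver NK cells. Insig1 had 3.92, 4.95 and 5.12 against 4.30, 4.33 and 2.39. Nr1h2 had 6.53, 7.32 and 7.16 against 6.71, 7.14 and 7.40, so that the LXR beta level overlapped as well.

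Nr1h3, the LXR alpha gene, and Fads2, a desaturase that acts before Fads1, were at 0 counts in all 3 control liver NK libraries. Nr1h3 had log2 CPM 4.01, 1.02 and -1.70 in control liver ILC1s, where -1.70 marks 0 counts, which put it at least 13.2-fold higher against a floor of 3 counts per library. Fads2 had 2.59, -1.70 and 1.43, which put it at least 6.11-fold higher on the same floor. Both bounds rest largely on control liver ILC1 library 1, without which they are 1.94-fold for Nr1h3 and 2.69-fold for Fads2. Neither passed the adjusted test (edgeR adjusted p = 0.566 and 0.553). Summed Kupffer cell and macrophage marker CPM was 317, 14 and 0.217 in those 3 liver ILC1 libraries and 8.71 to 11.3 in the control NK libraries, and its part in the Nr1h3 value was not tested. Of those 13 markers 10 passed 3 counts in at least 1 control liver ILC1 library and 3 in at least 1 control NK library, where Csf1r had 0 counts throughout. Nr1h3 reached 4.63 in control spleen ILC1 library 3, where the macrophage markers summed to 521. Summed hepatocyte marker CPM was 221, 19.8 and 21.2 in control liver ILC1 libraries 1, 2 and 3 and 1.87 to 3.88 in control NK libraries. Of those 17 markers 15 passed 3 counts in at least 1 control liver ILC1 library and 3 in at least 1 control NK library. In spleen ILC1 RARa403 library 1 they summed to 239, with Nr1h3 and Fads2 at 0 counts. Summed neutrophil and erythroid marker CPM was 2230, 0 and 0.217 in control liver ILC1 libraries 1, 2 and 3 and 0.111 to 31.7 in control NK libraries. These sums came from haemoglobin genes, since S100a8, S100a9, Ly6g and Retnlg had 0 counts there. In spleen ILC1 RARa403 library 3 the list summed to 2250, with Nr1h3 and Fads2 at 0 counts. The part of the hepatocyte, neutrophil and erythroid markers in the Nr1h3 and Fads2 values was not tested.

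The remaining libraries completed the picture for these genes, given as log2 CPM with libraries 1, 2 and 3 in that order and each group by its label. Hmgcs1 had 6.01, 5.87 and 5.58 in RARa403 liver ILC1s, 4.56, 5.75 and 6.0 in RARa403 NK cells, 5.77, 5.35 and 6.05 in control spleen ILC1s, and 6.44, 5.45 and 5.93 in RARa403 spleen ILC1s. Idi1 had 3.34, 4.58 and 3.48 in RARa403 liver ILC1s, 5.90, 4.90 and 4.54 in RARa403 NK cells, 4.70, 3.54 and 3.60 in control spleen ILC1s, and 4.02, 4.30 and 2.84 in RARa403 spleen ILC1s. Sqle had 3.56, 4.52 and 4.98 in RARa403 liver ILC1s, -1.70, 4.64 and 2.11 in RARa403 NK cells, 2.43, 3.62 and 4.81 in control spleen ILC1s, and 4.07, 0.37 and 3.13 in RARa403 spleen ILC1s. Hmgcs1 stayed between 5.35 and 6.66 outside liver NK RARa403 1, while Sqle, further along the path, ranged over 4.65 log2 units in those 17 libraries.

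Among the other mevalonate genes, Mvk had 3.20, 1.79 and 3.93 in control liver ILC1s, 1.90, 3.31 and 2.88 in RARa403 liver ILC1s, 0.31, 1.77 and 1.94 in control NK cells, and -0.33, 2.22 and 0.56 in RARa403 NK cells. Pmvk had 3.46, 3.20 and 2.66 in control NK cells, 1.99, 3.44 and 0.19 in RARa403 NK cells, 4.11, 2.94 and 3.32 in control spleen ILC1s, and 3.57, 2.39 and 3.02 in RARa403 spleen ILC1s. Fdps had 0.31, 3.64 and 0.89 in RARa403 liver ILC1s, -0.69, 2.63 and 1.73 in control NK cells, -1.70, 2.22 and 1.80 in RARa403 NK cells, and -1.70, 2.71 and 3.02 in RARa403 spleen ILC1s. Each of these 3 genes varied by more than 4 log2 units over the 17 libraries. Lss had 4.62, 5.51 and 5.78 in RARa403 liver ILC1s, 6.45, 5.20 and 5.24 in RARa403 NK cells, 6.32, 5.02 and 5.48 in control spleen ILC1s, and 5.62, 4.85 and 4.80 in RARa403 spleen ILC1s, and it varied less, by 2.94 units.

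Among the regulators, Srebf2 had 7.12, 7.54 and 7.28 in RARa403 liver ILC1s, and 7.33, 6.76 and 7.06 in RARa403 spleen ILC1s, all above the 5 NK libraries other than RARa403 1. Srebf1 had 6.21, 6.96 and 6.55 in RARa403 liver ILC1s, 8.60, 6.27 and 6.31 in RARa403 NK cells, 6.35, 5.99 and 5.74 in control spleen ILC1s, and 5.45, 5.73 and 6.54 in RARa403 spleen ILC1s. Scap had 5.68, 5.82 and 5.94 in control liver ILC1s, 6.13, 5.75 and 5.63 in RARa403 liver ILC1s, 5.43, 5.68 and 6.21 in control spleen ILC1s, and 5.74, 5.65 and 6.42 in RARa403 spleen ILC1s. Insig1 had 4.45, 4.91 and 2.61 in RARa403 liver ILC1s, 3.50, 4.22 and 4.93 in RARa403 NK cells, 4.56, 4.11 and 5.17 in control spleen ILC1s, and 4.98, 2.74 and 4.63 in RARa403 spleen ILC1s. Srebf1 and Scap held a narrow band in the 17 libraries, with spans of 1.51 and 1.06, and Insig1, which SREBP2 itself induces, spanned 2.78.

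Among the transport genes, Abcg1 had 7.17, 6.69 and 7.01 in control liver ILC1s, 6.54, 6.68 and 6.66 in control NK cells, 6.66, 6.85 and 6.77 in control spleen ILC1s, and 5.95, 6.72 and 6.43 in RARa403 spleen ILC1s. Abca1 had 4.10, 6.01 and 5.78 in RARa403 spleen ILC1s. Nr1h2 had 6.94, 7.16 and 7.0 in RARa403 liver ILC1s, 7.48, 7.05 and 7.15 in RARa403 NK cells, and 6.98, 7.20 and 6.90 in RARa403 spleen ILC1s. Nr1h2 stayed between 6.53 and 7.40 in the 17 libraries. Nr1h3 had 2.27, 4.06 and -1.70 in RARa403 liver ILC1s, -1.70, -1.70 and -1.08 in RARa403 NK cells, -1.70, 1.73 and 4.63 in control spleen ILC1s, and -1.70, 2.81 and -1.70 in RARa403 spleen ILC1s, with macrophage markers at 125 summed CPM in RARa403 liver ILC1 library 2, its highest of that group.

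Among the fatty acid genes, Acly had 7.82, 8.37 and 8.29 in control liver ILC1s, 8.16, 8.31 and 7.96 in RARa403 liver ILC1s, 8.16, 8.65 and 8.38 in control NK cells, and 7.48, 8.30 and 8.31 in RARa403 NK cells. Fasn had 6.75, 6.68 and 6.33 in control spleen ILC1s, and 6.22, 6.59 and 6.66 in RARa403 spleen ILC1s. Elovl6 had 5.47, 5.21 and 5.01 in control liver ILC1s, 5.79, 4.54 and 5.11 in RARa403 liver ILC1s, 4.98, 5.88 and 5.94 in control NK cells, and 1.01, 5.45 and 5.28 in RARa403 NK cells. Acly and Fasn were steady, with spans of 0.96 and 1.29 in the 17 libraries. Scd2 had 5.98, 6.42 and 5.64 in RARa403 liver ILC1s, 8.99, 6.96 and 7.24 in RARa403 NK cells, and 4.77, 5.97 and 5.04 in RARa403 spleen ILC1s, so the NK libraries again stood highest. Scd1 had -1.70, 2.18 and -1.70 in control NK cells, -0.86, -1.70 and -1.70 in RARa403 NK cells, and 2.44, 4.81 and 3.72 in RARa403 spleen ILC1s, and Fads2 had -0.86, -1.70 and -1.70 in RARa403 NK cells. Scd1 was above 3 counts in all 3 RARa403 spleen libraries and in 1 control NK library.

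Control spleen ILC1s against control liver ILC1s asks what the organ changes. Scd1 had 2.02, 2.04 and 6.21 in spleen ILC1s and -1.70, 2.01 and -1.70 in liver ILC1s, and the spleen libraries lay above, narrowly for the nearest pair, 2.02 and 2.01. The difference was 4.49 ± 2.18 (SE, edgeR adjusted p = 1). The difference was 1.63 without spleen ILC1 control 3 and 10.50 without liver ILC1 control 2. In spleen control library 3, which had 6.21, B cell marker CPM summed to 2730 (345 and 656 in libraries 1 and 2), macrophage markers to 521 (7.37 and 99.7) and liver endothelial and stellate markers to 312 (74.9 and 99), and their part in the result was not tested. All 8 B cell markers passed 3 counts in at least 1 control spleen library, Ms4a1 with 49, 234 and 2319 counts. Scd1 was the 1 member of 34 without overlap, where 8.96% of all genes had none.

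Abca1 had 3.40, 6.21 and 5.51 in control spleen ILC1s and 4.38, 3.87 and 5.07 in control liver ILC1s, with a difference of 0.92 ± 0.95 (SE). Fdps had 2.49, -1.70 and 3.60 against 0.62, 2.11 and -0.93, a difference of 1.65 ± 1.93. Nr1h2 had 7.17, 7.23 and 7.37 against 6.53, 7.32 and 7.16, a difference of 0.22 ± 0.26. All 3 pairs of groups overlapped, and each adjusted p was 1 (edgeR). The median difference was 0.05 over the sterol genes and 0 over the fatty acid genes, beside 0.03 over all genes.

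The comparison of RARa403 with control liver ILC1s asks what the blocked receptor does in these cells. Fasn, the fatty acid synthase (chr11:120805846-120824547, minus strand), had 6.96, 6.76 and 7.0 in liver ILC1s labelled RARa403 and 6.00, 6.59 and 6.37 in controls. The labelled libraries all lay above, with a difference of 0.57 ± 0.60 (SE, edgeR adjusted p = 1) in the 18-library fit. Pmvk, the phosphomevalonate kinase, had 1.84, 1.17 and 2.54 against 2.69, 4.29 and 2.77, all below the controls, a difference of -1.56 ± 0.88 (adjusted p = 1). Fasn and Pmvk were the 2 members of 34 without overlap, where 9.51% of all genes had none. Without library 1 of that group Srebf1 above and Insig2 below joined them, 4 members where 17% of genes had none. Summed proliferation markers (15 genes, all detected) lay below the controls in all 3 labelled libraries, at 313, 788 and 625 CPM against 1530, 1110 and 879, and their part in these values was not tested.

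Abca1 (chr4:53030787-53159895, minus strand), the exporter of cholesterol to apolipoprotein, had 6.68, 5.62 and 4.76 in liver ILC1s labelled RARa403 and 4.38, 3.87 and 5.07 in controls, with overlap. The difference was 1.38 ± 0.96 (SE, edgeR adjusted p = 1). Scd1 was at 0 counts in all 3 labelled libraries and in 2 of 3 controls, at least 2.79-fold lower against the floor of 3 counts per library, which rests on 1 control library. Fads2 had 0.31, -1.70 and -1.70 against 2.59, -1.70 and 1.43, a difference of -3.06 ± 2.43 at very low counts.

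Without library 1 of the RARa403 groups, 0 members passed in liver ILC1s (0.0129% of genes), and at an unadjusted p under 0.05 there were 0 (3.84%). Fasn then differed by 0.55 ± 0.27 (SE, edgeR adjusted p = 0.961) and Pmvk by -1.49 ± 0.99. Abca1 differed by 0.73 ± 0.66 (adjusted p = 1), and Scd1 and Fads2 were then at 0 in the labelled libraries, at least 2.85-fold and 6.2-fold lower on the same floor. With libraries 2 and 3 of every group 0 members passed (0.00705% of genes), with Fasn at 0.40 ± 0.30, Pmvk at -1.77 ± 1.11 and Abca1 at 0.65 ± 0.61 (adjusted p = 1 for each). Liver ILC1 RARa403 1 also held 1640 summed CPM of NK markers, against 357 to 483 in the control liver ILC1 libraries, and its part in these values was not tested. The median difference of the sterol genes was 0.13 with all libraries and 0.01 without library 1 of the RARa403 groups.

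In liver NK cells the values labelled RARa403 rested on library 1. Srebf2 had 10.14, 6.52 and 6.05 there and 5.63, 6.47 and 6.08 in controls. The difference was 2.65 ± 0.75 (SE, edgeR adjusted p = 0.428) with library 1 and 0.19 (adjusted p = 1) without it. Fasn had 10.08, 7.29 and 6.66 against 7.03, 7.26 and 6.51, a difference of 1.84 ± 0.61 with library 1 (adjusted p = 0.428) and 0.03 without it. Abca1 had 9.48, 4.56 and 6.20 against 5.49, 5.09 and 6.08, a difference of 2.47 ± 0.99 (adjusted p = 0.467) and -0.03 without it. Scap, the escort of the SREBPs, had 8.01, 5.60 and 6.15 against 6.05, 5.78 and 5.37, a difference of 1.22 ± 0.49 (adjusted p = 0.470) and 0.13 without it.

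In library 1 of this group 10 of the 34 members lay above the range of the 17 other libraries: Idi1, Lss, Srebf1, Srebf2, Scap, Abca1, Abcg1, Nr1h2, Fasn and Scd2. Another 14 lay below that range, among them Hmgcs1, Sqle and Cyp51, and 11 of the 34 were at 0 counts. Abcg1 stood at 8.59 and Scd2 at 8.99 there. The groups did not overlap for 4 of the 34 members, Idi1, Fdft1 and Lss above the controls and Sc5d below, where 8.5% of all genes had no overlap.

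Without library 1, 0 of the 34 genes passed in liver NK cells (0.0194% of genes in the 15-library fit). Cyp51, the lanosterol demethylase, had 5.41 and 4.0 in libraries 2 and 3 against 1.56, 3.62 and 3.70 in controls, a difference of 1.65 ± 0.74 (SE, edgeR adjusted p = 1). It was the 1 member of 34 at an unadjusted p under 0.05, where 4% of genes were. Abcg1 had 6.26 and 6.11 against 6.54, 6.68 and 6.66, a difference of -0.46 ± 0.22 (adjusted p = 1). With libraries 2 and 3 of every group 0 members passed (0.0141% of genes), with Cyp51 at 1.22 ± 0.70 (adjusted p = 0.884) and Abcg1 at -0.50 ± 0.22 (adjusted p = 0.879). Lss was at 0.95 ± 0.42 (edgeR adjusted p = 0.879) in that fit. Fads1 had the largest difference of the members there, 8.76 ± 1.56 (edgeR adjusted p = 0.245), with a mean of 2.89 against controls at 0 counts. That value rests on leaving out library 1 of the NK controls, where Fads1 stood at 4.44. In libraries 2 and 3, 7 members had no overlap with controls, where 17.4% of genes had none: Idi1, Fdft1, Lss and Cyp51 above, and Sc5d, Srebf1 and Abcg1 below. The median difference of the sterol genes was -0.19 with library 1 and 0.33 without it.

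**Figure D4:**
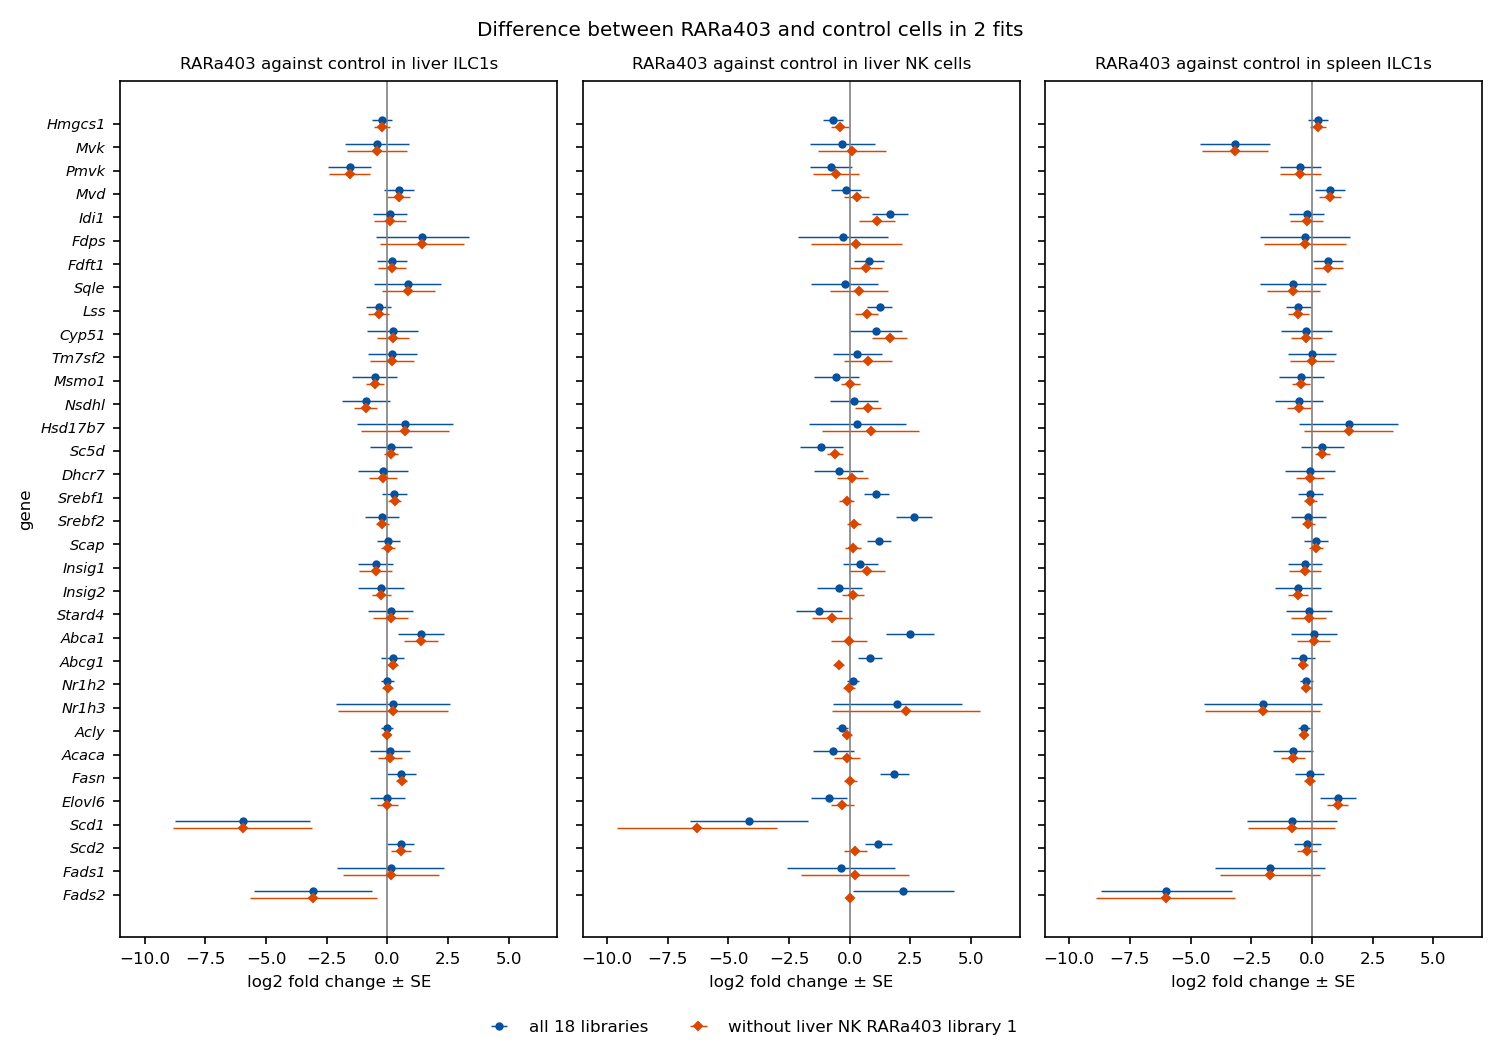
Log2 difference between libraries labelled RARa403 and control libraries (x axes, bars show SE) for the 34 genes (y axis), with a panel for each population, by the fit of 18 libraries and that without liver NK RARa403 1. The fits part in the liver NK panel, where Srebf2 moves from 2.65 to 0.19 and Abca1 from 2.47 to -0.03.

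In spleen ILC1s, Mvk, the mevalonate kinase, had -0.70, 1.97 and -1.70 in libraries labelled RARa403 and 4.38, 3.82 and 0.78 in controls. The groups overlapped, and the difference was -3.18 ± 1.44 (SE, edgeR adjusted p = 1). Leaving out 1 library moved it from -6.15, without spleen ILC1 RARa403 2, to -2.53, without spleen ILC1 control 1, and it was -2.73 ± 1.52 in the 15-library fit. Fads2 was at 0 counts in all 3 labelled libraries against 1.68, -1.70 and 0.02 in controls, at least 2.7-fold lower against the floor of 3 counts per library and at least 2.73-fold without library 1 of the RARa403 groups. That bound rests on spleen ILC1 control 1, without which the mean of the controls is under the floor. Elovl6, the elongase of palmitate, had 5.88, 6.02 and 5.41 against 3.66, 5.44 and 4.62, with overlap and a difference of 1.05 ± 0.74. Acly had 7.80, 7.69 and 7.92 against 8.04, 8.16 and 8.23, all below the controls, a difference of -0.34 ± 0.25 (adjusted p = 1 for each).

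Acly was 1 of 4 members without overlap in spleen ILC1s, where 8.98% of genes had none; Mvd lay above the controls and Nsdhl, Acly and Acaca below. Without library 1 of that group Lss joined those below, 5 members where 18.8% of genes had none. Without library 1 of the RARa403 groups, 0 members passed (0.0129% of genes), with Elovl6 at 1.00 ± 0.46 (SE, edgeR adjusted p = 0.933) and Acly at -0.33 ± 0.21. Elovl6 was the 1 member of 34 at an unadjusted p under 0.05, beside 4.21% of genes. With libraries 2 and 3 of every group 0 members passed (0.00705% of genes), with Elovl6 at 0.65 ± 0.36, Acly at -0.39 ± 0.18 and Mvk at -2.09 ± 1.66 (edgeR adjusted p = 1 for each). The median difference of the 8 fatty acid genes was -0.56 in the fit of 18 libraries, with 1 of 8 above 0, and -0.38 without library 1, where all genes had a median of 0 in the fit of 18.

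Whether the RARa403 effect differed between populations was tested directly. Between liver ILC1s and liver NK cells, 0 members passed (edgeR); Srebf2 differed by -2.86 ± 1.02 (SE, adjusted p = 0.798) and Lss by -1.60 ± 0.72 (adjusted p = 0.798). Between spleen and liver ILC1s, 0 passed, with Scd1 at 5.14 ± 3.15 and Mvk at -2.76 ± 1.90 (adjusted p = 1 for both). Without library 1 of the RARa403 groups, 0 members passed in either comparison, and 0% of genes did. Srebf2 then differed by -0.31 ± 0.41 and Lss by -0.79 ± 0.62 between liver ILC1s and NK cells, and Scd1 by 5.53 ± 3.95 and Mvk by -2.61 ± 1.95 between spleen and liver ILC1s (edgeR adjusted p = 1 for each).

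Abcg1, which exports sterols to high-density lipoprotein, was set between liver ILC1s and NK cells labelled RARa403, where its direction depended on liver NK RARa403 1. With all 18 libraries the log2 difference was -0.29 ± 0.49 (SE, edgeR adjusted p = 0.876). In libraries 2 and 3 labelled RARa403, Abcg1 (chromosome 17) had 7.44 and 7.07 in liver ILC1s and 6.26 and 6.11 in liver NK cells, and was higher in liver ILC1s by 1.09 ± 0.24 (SE, 2.13-fold, edgeR adjusted p = 0.0465), where 0.897% of genes passed. In the 17-library fit, with liver ILC1 RARa403 1 at 6.98, the difference was 1.01 ± 0.25 (adjusted p = 0.124). Srebf2 differed by 1.12 ± 0.32 (adjusted p = 0.178) in the same comparison of 15 libraries. This comparison and the set of libraries were chosen after the values were seen.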

How the data were processed

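SMART-seq libraries of 200 sorted cells were analysed from the deposited table of raw read counts per gene. Per the submitters' processing notes, the authors used fastp 0.23.0, HISAT2 2.1.0, the mm10 build and featureCounts of Subread 1.6.5; the annotation release, strand setting and treatment of multiply aligned reads are not given in those notes or in the other sources. Symbols were matched to 45143 of 46078 gene IDs, and genes without a symbol held 0.0544% of counts.

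Genes were filtered with filterByExpr (minimum count 10), scaled by TMM and tested with edgeR 4.0.16 (R 4.3.3) in one model of 6 group means, with Benjamini-Hochberg adjustment over all genes and a threshold of 0.05. Log2 CPM used a prior count of 2. The SE given with an edgeR difference was the absolute log2 difference divided by the square root of its F statistic. It thus restates the test and is no separate measure of spread. DESeq2 1.42.0 and limma 3.58.1 were alternatives, as were other scaling, no filter, only the groups compared, a block and leaving out libraries; the scripts were tested on simulated data. The members and lists were chosen with earlier results of these data known. Per-library values are given for genes called, for the 4 smallest p per comparison of groups and for 13 genes fixed by role; Fdft1, Cyp51, Mvd, Fads1, Nsdhl, Acaca and Sc5d were named after their values were seen. The fits without liver NK RARa403 1 in the added comparisons, the fit of 15 libraries and the added comparisons were chosen after seeing the data.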

Additional observations from a re-analysis of the deposited data

How the results depend on the processing

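Members called stayed at 0 under most settings. In control liver ILC1s against liver NK cells the count was 2 with limma-voom, 2 with replicates 2 and 3 only, 1 with no filter, 1 with only the groups compared, 1 without library 1 of every RARa403 group, and 0 to 1 when 1 library was left out, the 1 coming without liver NK RARa403 1. With no filter, RARa403 in liver NK cells gave 3 (Srebf2, Abca1 and Fasn), and the comparison of its effect between liver ILC1s and NK cells gave 1. Directions turned for Srebf2 over all ILC1s (-0.13 with all 18 libraries), Abcg1 between RARa403 liver ILC1s and NK cells (-0.29 with all 18 libraries, 1.01 without liver NK RARa403 1), Fdps in spleen against liver ILC1s (-0.21 by limma-voom), Abca1 in RARa403 NK cells (-0.08 by limma-voom, -0.09 with replicates 2 and 3 only, -0.03 without library 1 of every RARa403 group) and Srebf2 there (0 with replicates 2 and 3 only). Leaving out 1 library gave -0.03 to 3.03 for that Abca1 value, -6.15 to -2.53 for Mvk under RARa403 in spleen ILC1s, -6.59 to 0 for Scd1 under RARa403 in liver ILC1s and -0.83 to 8.01 for Scd1 in the spleen against liver effect; both Scd1 values turn without liver ILC1 control 2, the only liver ILC1 control with Scd1 counts. The Srebf2 value over all ILC1s and the Abcg1 value turned with liver NK RARa403 1 kept in, and the Abca1 value turned with it left out. That library stood at 10.14 for Srebf2, 8.59 for Abcg1 and 9.48 for Abca1. The cause of the other turns was not tested.

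Correlations of deviations by replicate number do not settle whether the numbers pair samples. Of 15 (-0.033 to 0.245), 3 were over 0.1. In 9 of the 15 the library correlated best with its own number. These were every replicate of the comparisons between control populations and replicate 1 of each RARa403 comparison. With replicate number as a block, 0 members were called in the 5 comparisons of groups and the 2 of the effect, and 2 over all ILC1s. Replicate 1 has another opening number in the sample codes than replicates 2 and 3, and number 1 holds 1 library per group. Scd1, Nr1h3 and Fads2 were at or under 3 counts in 9 to 12 of 17 libraries, so their differences rest on few libraries. Whether sequencing depth set these low counts was not tested.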
